A study of Mus musculus with 15 samples.

Results

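The 9 genes described here encode transcription factors best known from mesoderm: T, Mesp1, Tbx6, Msgn1, Meox1, Meox2, Tcf15, Hand1 and Hand2. They were chosen by name, as mesodermal factors of which Meox1 and Hand2 were already known to vary between lines of this study, and all 9 have a row among the 23393 named genes of the deposited count table. The table holds 15 RNA sequencing libraries of mouse neural progenitors, derived from embryonic stem cells of strain 129/Ola. The stem cells had been grown on sparse feeder cells without serum, with CHIR99021, PD184352 and LIF. For differentiation the feeders were depleted, and the cells spent 2 days in suspension and then received 500 nM all-trans retinoic acid. Every group, the control included, received 1 ug/ml doxycycline for 12 hours, which switches on a transgene behind a TRE promoter. The control was the parental line mA2.lox.Cre (transgene TRE_Cre, 5 libraries). The lines carried TRE_Nkx2.2, TRE_Nkx6.1 or TRE_Olig2, or Nkx6.1 joined through a P2A peptide to Nkx2.2 or to Olig2, so that 1 transcript gives both proteins (2 libraries per line). How many clones stand behind a line, and whether libraries of a group came from separate cultures, is not given in the sources used here, and the p-values then measure the spread between libraries, which may be technical. The stated question of the study was which genes Nkx2.2, Nkx6.1 and Olig2, repressors of the ventral neural tube, turn down in neural progenitors.

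Mesoderm forms when epiblast cells pass through the primitive streak, and cells of the tail end of the embryo choose between mesoderm and spinal cord. The 9 factors mark successive steps and places of that path. T (Brachyury) and Mesp1 mark the streak and the first mesoderm leaving it. Tbx6 and Msgn1 act in presomitic mesoderm, where mouse embryos without Tbx6 form extra neural tubes in place of somites. Meox1, Meox2 and Tcf15 (paraxis) act in somites. Hand1 and Hand2 are bHLH factors of lateral plate mesoderm and heart, and Hand2 is also made in sympathetic neurons, limb buds and branchial arches.

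Hand2 had the largest F statistic of the 3 members that could be tested for a difference among groups, and its promoter is shown for that reason. The 250 bases before its start lie at chr8:57320733-57320982 (GRCm38.p6, plus strand, from RefSeq), and the capitals mark TTAATTA, a homeodomain motif of the kind Nkx6.1 is known to bind.

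Hand2: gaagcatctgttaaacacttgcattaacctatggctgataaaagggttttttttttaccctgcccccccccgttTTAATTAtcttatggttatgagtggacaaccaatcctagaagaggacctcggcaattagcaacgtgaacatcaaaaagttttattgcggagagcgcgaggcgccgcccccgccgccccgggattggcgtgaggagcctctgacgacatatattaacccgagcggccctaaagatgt

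The motif starts at position -176, counted back from the gene start at -1. Of 32851 mouse promoters of that length, 2.78% hold TTAATTA on either strand. CANNTG, the E-box bound by bHLH factors such as Olig2, occurs in the Hand2 window at -246 and -235, and in 66.2% of promoters. AAGTG, the core bound by Nkx2.2, occurs at -235, inside the second E-box, and in 40.7% of promoters. RefSeq promoters were found for 6 of the 9 members, and Tbx6 was the other one with TTAATTA, at -232. The motifs were picked with the sequences in view, and a match is a description of letters, not a binding site.

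Library totals ran from 12282038 to 19426544 counts, and each control total was above every line total. The expressed factors fit the labels. Nkx2-2 stood at 448 to 505 CPM (counts scaled to the same library total, with TMM factors) in the Nkx2.2 line. It stood lower, at 358 to 382 CPM, in the Nkx6.1-P2A-Nkx2.2 group, and at most at 1.39 CPM in the control. Nkx6-1 stood at 616 to 681 CPM in the 3 lines that carry it and at most at 47.3 CPM in the control. Olig2 stood at 422 to 637 CPM in its lines and at most at 45.1 CPM in the control. Control replicate 5 stood apart: its counts differed from those of the other controls with a chi-square per degree of freedom of 22.2 to 47.8, against 3.53 to 17.2 among the other 4. Of the 6 neural progenitor markers listed, Sox2 (110 to 191 CPM) and Nes (68.4 to 235 CPM) were highest at their lowest library. The others reached lower values: Sox3 37.4 to 113 CPM, Sox1 22.4 to 116 CPM, Pax6 7.88 to 127 CPM and Hes5 2.84 to 59.9 CPM. The pluripotency factors Pou5f1 (17.4 to 80.6 CPM) and Nanog (3.78 to 32.7 CPM) and the fibroblast collagens Col1a1 (5.89 to 37.7 CPM) and Col3a1 (7.62 to 29.1 CPM) were also present in every library.

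Counted per length of transcript (RPKM, CPM per kilobase of exon), the 9 factors fell into an upper and a lower range. Mean levels over the 15 libraries were 10 ± 3.40 RPKM for Meox1, 6.23 ± 1.30 RPKM for Tcf15 and 3.12 ± 1.48 RPKM for Hand2 (SD, n = 15). All other members lay at or under 0.302 RPKM, the mean of Tbx6. The upper range thus held 2 of the 3 somite genes and 1 of the 2 Hand genes, and the lower range held every streak and presomitic factor together with Meox2 and Hand1. Meox1 was above Tcf15 in 12 of 15 libraries, and Tcf15 above Hand2 and Hand2 above Tbx6 in 15 of 15. Tbx6 and T (0.272 RPKM) could not be ordered with the same regularity, since Tbx6 was higher in 10 of 15 libraries. T lay above Hand1 (0.160 RPKM) in 13 and Hand1 above Meox2 (0.0353 RPKM) in 14 of 15. At the bottom, Meox2 was above Msgn1 in 9 and Msgn1 above Mesp1 in 2 of 15, with most of these values at 0.

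The test took in 13982 genes, those reaching 1 CPM in 2 or more libraries. Of the 9 members, 3 passed this filter (Meox1, Tcf15 and Hand2) and 6 did not, so counts of calls below are out of 3. "Rose" and "fell" are used for an adjusted p under 0.05 from edgeR's quasi-likelihood test, adjusted over all genes tested.

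**Figure D1:**
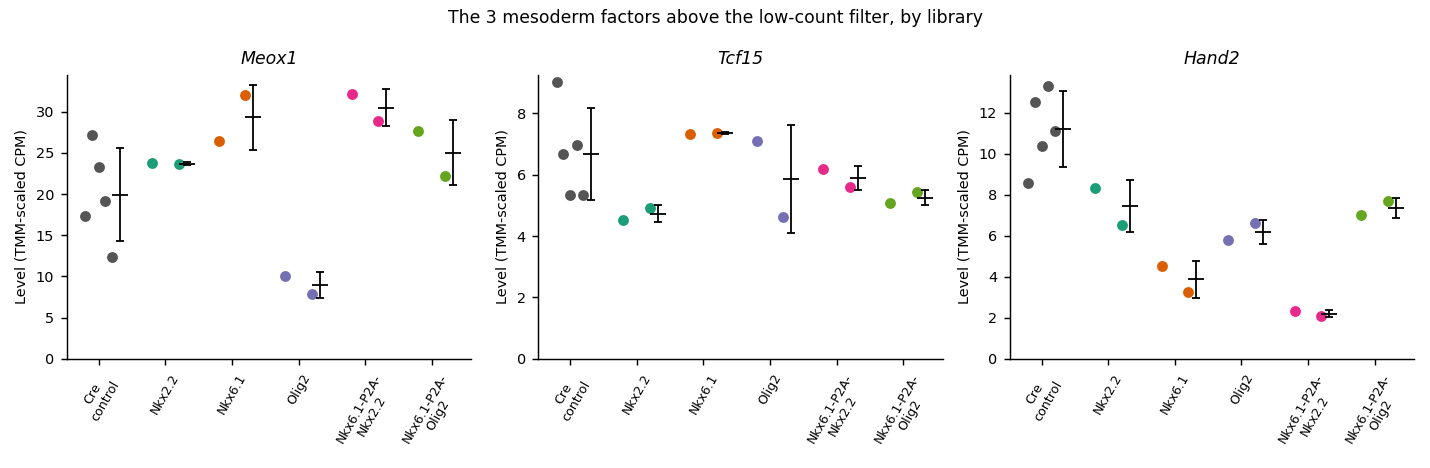
Level of Meox1, Tcf15 and Hand2 in each library (TMM-scaled CPM, y axis) by group (x axis); points are libraries, and the bar beside them is the mean with SD (n = 5 for the control, n = 2 per line). All 10 line libraries of Hand2 lie below all 5 controls, and Meox1 is lowest in the 2 libraries of the Olig2 line.

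Hand2 (chr8:57320983-57324633, plus strand, mm10, annotation GENCODE M21) was highest in the Cre control and lowest in the Nkx6.1-P2A-Nkx2.2 group. Its control counts were 164, 240, 201, 236 and 199 in replicates 1 to 5, which corresponds to 8.56, 12.5, 10.4, 13.3 and 11.1 CPM. Both Nkx6.1-P2A-Nkx2.2 libraries held far fewer reads, 29 and 33, or 2.33 and 2.08 CPM. The Nkx6.1 line was next, with counts of 80 and 48, or 4.51 and 3.24 CPM. In the remaining lines Hand2 was closer to the control: the Olig2 line had 83 and 110 counts (5.79 and 6.61 CPM), the Nkx2.2 line 151 and 105 (8.33 and 6.54 CPM) and the Nkx6.1-P2A-Olig2 group 116 and 115 (7.01 and 7.70 CPM). Thus all 10 line libraries were below all 5 controls, which was true of 43 of the 13982 genes tested (0.308%). Taken line by line, the share of genes with both libraries below all controls was 6.69% for Nkx2.2, 9.7% for Nkx6.1, 7.84% for Olig2, 9.99% for Nkx6.1-P2A-Nkx2.2 and 10.4% for Nkx6.1-P2A-Olig2. The nearest gap was between Nkx2.2 replicate 1 (8.33 CPM) and control replicate 1 (8.56 CPM).

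Against the control, Hand2 fell in 3 of the 5 lines. The control held 11.2 ± 1.85 CPM on average (SD, 5 libraries). For Nkx6.1-P2A-Nkx2.2 the level was 2.2 ± 0.173 CPM (2 libraries), 5.07-fold lower (log2 fold change -2.34 ± 0.23 SE, adjusted p = 9.69e-05), the only call among the 3 tested members, in a comparison where 2.85% of all genes were called, 1.76% lower and 1.09% higher. In the Nkx6.1 line it was 3.88 ± 0.895 CPM, 2.87-fold lower (-1.52 ± 0.21, adjusted p = 0.00543), again the only member called, with 0.737% of all genes called, 0.565% lower and 0.172% higher. In the Olig2 line it was 6.20 ± 0.581 CPM, 1.80-fold lower (-0.85 ± 0.20, adjusted p = 0.0465), 1 of 2 members called where 1.86% of all genes were called, 0.443% lower and 1.42% higher. The differences in the Nkx2.2 line (7.43 ± 1.27 CPM, -0.59 ± 0.19, adjusted p = 0.279) and in the Nkx6.1-P2A-Olig2 group (7.36 ± 0.487 CPM, -0.60 ± 0.19, adjusted p = 0.120) did not pass. No member was called with Nkx2.2, where 0.722% of all genes were called (0.451% lower, 0.272% higher) and 1209 had an unadjusted p under 0.05. None was called with Nkx6.1-P2A-Olig2 either, where 2.84% were called (1.82% lower, 1.02% higher) and 2321 had an unadjusted p under 0.05. DESeq2 called no member in either of them. The Olig2 call sits at the threshold: it was lost without either Olig2 library or without control replicate 2, 3 or 4 (adjusted p up to 0.286). It was also lost with no filter (0.0534), with the label series as a term (-0.76, 0.121) and with only the compared groups in the fit (0.108). The Nkx6.1 call was lost without Nkx6.1 replicate 1 (-1.79, adjusted p = 0.0763), and the Nkx6.1-P2A-Nkx2.2 call held without each library in turn (-2.43 to -2.26).

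Between lines, Hand2 was lower with Nkx6.1-P2A-Nkx2.2 than with Nkx2.2 alone or with Nkx6.1-P2A-Olig2, and its difference from Nkx6.1 alone did not pass. An F test of any difference among the 6 groups gave an adjusted p of 0.000392 for Hand2 (rank 47 of 13982 genes) and 0.0175 for Meox1, and 0.428 for Tcf15, 2 of 3 members where 6.18% of all genes were called. Hand2 was 3.34-fold higher in the Nkx6.1-P2A-Olig2 group than in the Nkx6.1-P2A-Nkx2.2 group (1.74 ± 0.25, adjusted p = 0.0161), 1 of 3 members against 0.157% of all genes, 0.114% higher. Against the Nkx2.2 line, the Nkx6.1-P2A-Nkx2.2 group was 3.91-fold lower (-1.97 ± 0.32, adjusted p = 0.0466), 1 of 3 members against 0.093% of all genes, 0.0715% lower. Both calls rest on all libraries being present: the first was lost without any 1 of the 4 libraries compared (adjusted p 0.0798 to 0.224) and the second without any 1 of 9 line and control libraries (0.0520 to 0.421). Against the Nkx6.1 line the difference was -1.04 ± 0.33 and did not pass (adjusted p = 0.573, 95% interval -1.74 to -0.33). The Nkx6.1-P2A-Olig2 group did not differ past the threshold from the Nkx6.1 line (0.70 ± 0.31, adjusted p = 0.470) or from the Olig2 line (0.03 ± 0.30, adjusted p = 0.972, interval -0.62 to 0.69), nor did the Nkx6.1 line from the Nkx2.2 line (-0.93 ± 0.24, adjusted p = 0.103). Comparisons of a 2-factor line with a single-factor line carried a term for the leading digits of the label numbers (21 or 23), since the 2-factor lines and single-factor lines never share them. These 4 comparisons were added after the values had been seen.

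Hand2 values were nearly the same without control replicate 5: the log2 fold change was -2.35 in the Nkx6.1-P2A-Nkx2.2 group (adjusted p = 0.000156), -1.52 in the Nkx6.1 line (0.00630) and -0.85 in the Olig2 line (0.0452). Hand2 was the 1 member in the authors' deposited table of 224 genes as ratios, where its values were 0.139 and 0.159 in the Nkx6.1-P2A-Nkx2.2 group and 0.385 and 0.231 in the Nkx6.1 line. The authors' deposited table gave 0.399 and 0.529 for the Olig2 line, 0.726 and 0.505 for the Nkx2.2 line and 0.558 and 0.553 for the Nkx6.1-P2A-Olig2 group. Those ratios divide a count by the mean control count with no correction for library totals, which were higher in the control. In bulk RNA, fewer cells making a factor and less RNA per cell cannot be told apart. An antisense gene, Hand2os1, overlaps Hand2 exons and has no row of its own. The strand setting of the counting is not given in the sources used here. Hand2 counts may hold reads of both.

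**Figure D2:**
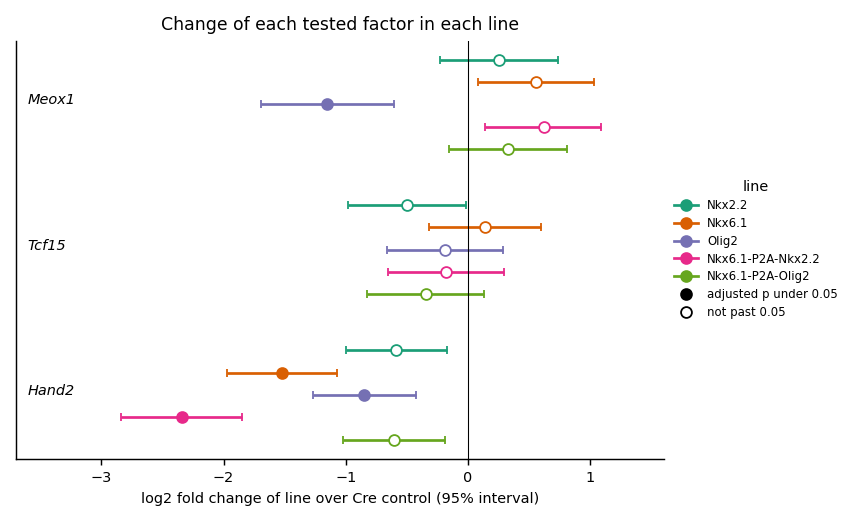
Log2 fold change of each line over the Cre control for the 3 tested factors (x axis) with 95% intervals from the fit; colours are lines, and filled points have an adjusted p under 0.05. Hand2 lies below 0 in all 5 lines and is called in 3, Meox1 is called in the Olig2 line, and no Tcf15 point is filled.

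Meox1 (chr11:101877510-101894374, minus strand), a homeobox gene of the somite, fell in the Olig2 line and passed against the control in no other line. Its control counts were 332, 520, 449, 340 and 223, or 17.3, 27.2, 23.3, 19.1 and 12.4 CPM. The Olig2 line had 145 and 131 counts, or 10.1 and 7.87 CPM, below all 5 controls. The other 4 lines lay in the upper part of the control range or above it. The Nkx6.1-P2A-Nkx2.2 group had 401 and 459 counts (32.2 and 28.9 CPM), both above every control. The Nkx6.1 line had 470 and 474 counts (26.5 and 32 CPM) and overlapped the control, as did the Nkx6.1-P2A-Olig2 group with 459 and 331 (27.7 and 22.2 CPM) and the Nkx2.2 line with 432 and 380 (23.8 and 23.7 CPM). Over all genes tested, 7.84% had both Olig2 libraries below all controls and 10.9% had both Nkx6.1-P2A-Nkx2.2 libraries above all of them.

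The Olig2 line held 8.99 ± 1.58 CPM of Meox1 against 19.9 ± 5.66 CPM in the control, 2.22-fold lower (-1.15 ± 0.25, adjusted p = 0.0332). Chromosome 18 stood apart in the same line: 151 of its 354 tested genes rose there, 1 fell, and their median log2 value was 0.52, while the medians of chromosomes 8 and 11, which carry Hand2 and Meox1, were -0.04 and 0.01. Without the genes of chromosomes 18 and Y, the Meox1 value was nearly the same but no longer passed (-1.13, adjusted p = 0.0986), and so it was with Hand2 in that line (-0.83, adjusted p = 0.126). The Meox1 call was also lost without either Olig2 library and without control replicate 2, 3 or 4 (adjusted p up to 0.515), and with no other groups in the fit (0.145). Its adjusted p was lower without control replicate 5, the lowest control (-1.28, adjusted p = 0.00248). In the other lines Meox1 did not pass: the log2 fold changes were 0.62 ± 0.22 in the Nkx6.1-P2A-Nkx2.2 group (adjusted p = 0.192), 0.56 ± 0.22 in the Nkx6.1 line (0.232), 0.33 ± 0.22 in the Nkx6.1-P2A-Olig2 group (0.501) and 0.26 ± 0.22 in the Nkx2.2 line (0.852).

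Set against other lines instead of the control, the Olig2 line was again lowest in Meox1. It was 3.26-fold below the Nkx6.1 line (-1.70 ± 0.29, adjusted p = 0.00626), 1 of 3 members where 1.88% of all genes were called, 0.336% lower. It was 2.65-fold below the Nkx2.2 line (-1.40 ± 0.29, adjusted p = 0.0211), 1 of 3 members against 1.84% of all genes, 0.458% lower. The Nkx6.1-P2A-Olig2 group, which makes Olig2 together with Nkx6.1, was 3.99-fold above the Olig2 line in the fit with the label series as a term (2.00 ± 0.33, adjusted p = 0.0173), and without that term the log2 value was 1.48 (adjusted p = 0.0145). Meox1 was 1 of 3 members called there, against 0.579% of all genes, 0.0858% higher. So the 2 lines that make Olig2 differed in Meox1 while their Hand2 levels did not differ past the threshold. The call against the Nkx6.1 line was lost without Olig2 replicate 2 (-1.52, adjusted p = 0.115). That against the Nkx2.2 line was lost without any 1 of the 4 libraries (0.0691 to 0.238) and without chromosomes 18 and Y (-1.39, adjusted p = 0.0526). That between the Olig2 lines was lost without either Olig2 library, Nkx6.1-P2A-Olig2 replicate 1 or control replicate 5 (up to 0.107). In the other line comparisons no member was called: 0.579% of all genes were called for Nkx6.1 against Nkx2.2, and of those compared with Nkx6.1 alone, 0.0286% for Nkx6.1-P2A-Nkx2.2 and 0.0787% for Nkx6.1-P2A-Olig2. The genes at an unadjusted p under 0.05 numbered 1891, 1163 and 1448. DESeq2 called Hand2 in the first of these (-0.94, adjusted p = 0.0314) and no member in the other two.

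Tcf15 (chr2:152143561-152149097, plus strand), which in mouse somites is needed for the epithelial state, passed no comparison. Its control counts were 173, 128, 103, 124 and 96 (9.02, 6.69, 5.35, 6.98 and 5.34 CPM), a mean of 6.68 ± 1.51 CPM. The Nkx2.2 line was lowest with 82 and 79 counts (4.53 and 4.92 CPM), both below every control, as in 6.69% of all genes for that line. Its difference was -0.50 ± 0.22 (adjusted p = 0.553). The Nkx6.1 line had 130 and 109 counts (7.33 and 7.37 CPM), the Olig2 line 102 and 77 (7.11 and 4.63 CPM), the Nkx6.1-P2A-Nkx2.2 group 77 and 89 (6.17 and 5.61 CPM) and the Nkx6.1-P2A-Olig2 group 84 and 81 (5.08 and 5.42 CPM). These 4 lines all overlapped the control, with log2 fold changes from -0.35 to 0.14.

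The 6 members under the filter were left out of the test above and are given by their counts, with a fit without the filter at the end. T (chr17:8434423-8442496, plus strand) had 5 to 17 counts per library. Its control libraries held 5 to 14 counts, and every line overlapped them. Tbx6 (chr7:126781483-126785560, plus strand) had 2 to 16 counts. Its control libraries held 7 to 13 counts, the Nkx6.1-P2A-Olig2 libraries 2 and 8, and every line overlapped the control. Hand1 (chr11:57828705-57832818, minus strand), the partner of Hand2 in the heart, had 0 to 12 counts. Its 2 Nkx6.1 libraries, with 9 and 12 counts (0.507 and 0.811 CPM), were above all 5 controls, which held 3 to 8 counts (0.156 to 0.418 CPM). Of the genes tested in that line, 10.2% lay above all controls in the same way.

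Meox2 (chr12:37108540-37179534, plus strand), the second Meox gene, was 1 of the 3 members seen in a few reads only. It had 0 to 3 counts per library and 21 in all, against 5546 for Meox1. Msgn1 (chr12:11208360-11208972, minus strand) had 3 counts in all, 2 and 1 in the Nkx6.1 libraries. Mesp1 (chr7:79792241-79793788, minus strand) had 2 counts in all, 1 in control replicate 5 and 1 in Nkx6.1 replicate 1. For Msgn1 the 0 counts of the control allow a level of up to 0.0319 CPM (3 counts over the 94004988 counts of the group), and for both genes the 0 counts of the Nkx2.2 line allow up to 0.0888 CPM, by counting error alone. With no filter on low counts none of the 6 passed in any line against the control, and the smallest adjusted p was 0.344, for Msgn1 in the Nkx6.1 line. In that fit the log2 fold changes had an SE of 0.45 to 0.59 for T and Tbx6 and of 0.55 to 0.75 for Hand1.

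**Figure D3:**
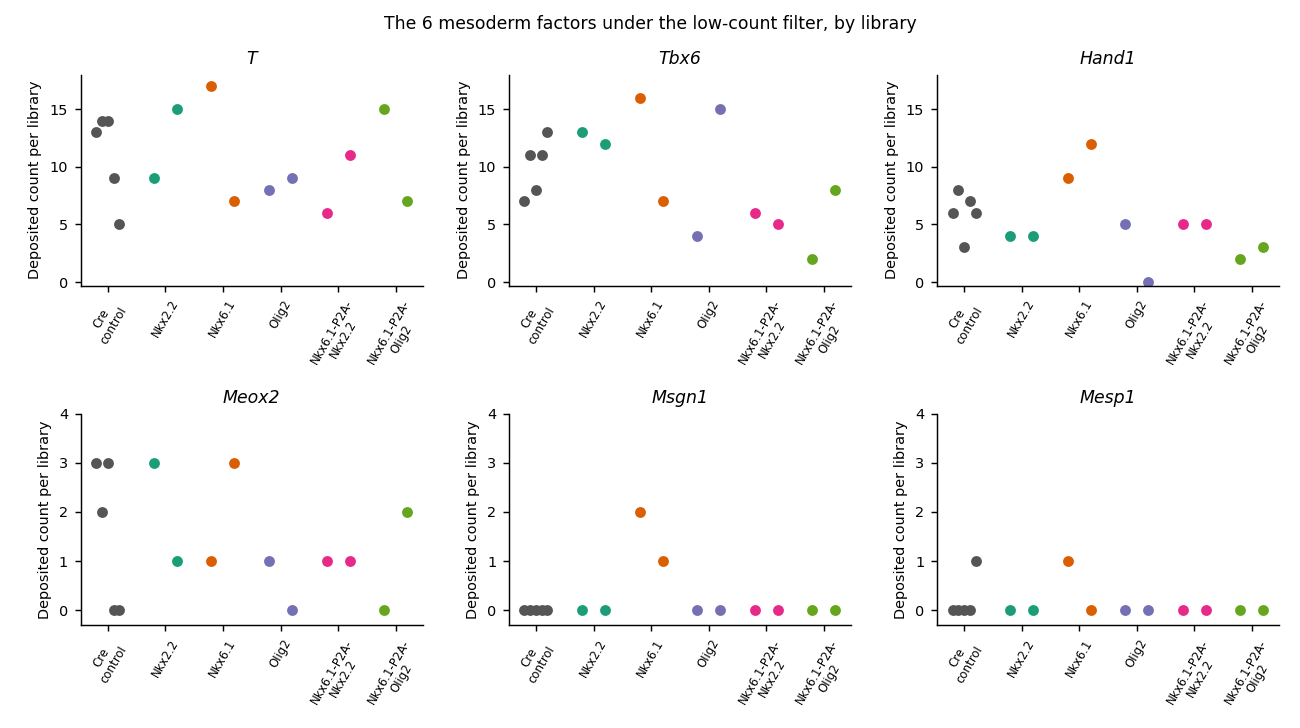
Deposited count per library (y axis) of the 6 factors under the filter, by group (x axis); points are libraries, with 5 for the control and 2 per line, and the y axes differ between rows. T and Tbx6 stay between 2 and 17 counts, Hand1 reaches 9 and 12 in the Nkx6.1 line, and Msgn1 and Mesp1 are at 0 in 13 of 15 libraries each.

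Other genes of the same steps of mesoderm were examined as lists. For this and the later lists, the shares of all genes called against the control were 0.722% with Nkx2.2, 0.737% with Nkx6.1 and 1.86% with Olig2. They were 2.85% with Nkx6.1-P2A-Nkx2.2 and 2.84% with Nkx6.1-P2A-Olig2. Of the primitive streak and early mesoderm list, which holds partners of T such as Eomes, Mixl1 and Wnt3a, 10 of 14 genes were tested and 0 passed in any line. Their median log2 fold changes ran from -0.36 in the Olig2 line to 0.11 in the Nkx2.2 and Nkx6.1 lines, with medians of all genes within 0.01 of 0. Eomes, a T-box gene of the streak, lay at 2.49 to 7.18 CPM, and Evx1 was at 0 in 10 libraries. The presomitic and somite list had 11 of 19 genes tested, and 0 passed in the Nkx2.2 and Nkx6.1 lines. In the Olig2 line 1 rose, the Notch ligand Dll3 (1.65 ± 0.36, adjusted p = 0.0314). In the Nkx6.1-P2A-Nkx2.2 group 2 fell, the T-box gene Tbx18 of anterior somite compartments (-2.48 ± 0.41, adjusted p = 0.00427) and the protocadherin Pcdh8 (-1.48 ± 0.33, adjusted p = 0.0314). In the Nkx6.1-P2A-Olig2 group 1 gene fell and 1 rose. Tbx18 (-1.50 ± 0.35, adjusted p = 0.0364) fell, and the Notch modifier Lfng rose (2.23 ± 0.48, adjusted p = 0.0267). Dll3 and Lfng are also made by neural progenitors and early neurons. Each of these 5 calls was lost without replicate 2 of its line. Dll3, Lfng and Pcdh8 were each lost in 5 of 7 fits with a library left out. Tbx18 was lost in 6 of 7 with Nkx6.1-P2A-Olig2 and in 1 of 7 with Nkx6.1-P2A-Nkx2.2. With the label series as a term Pcdh8 (0.109), Lfng (0.194) and Tbx18 with Nkx6.1-P2A-Olig2 (0.114) were lost, and Dll3 without chromosomes 18 and Y (0.0983). Tbx18 was low, at 1.63 ± 0.116 CPM in the control and 0.295 ± 0.15 CPM with Nkx6.1-P2A-Nkx2.2. Its log2 value there ran from -2.58 to -1.03 over 9 other settings. The median of the list was 0.16 in the Olig2 line and from -0.24 to -0.10 in the other 4.

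The lateral plate and cardiac list, the group Hand1 and Hand2 belong to, had 14 of 16 genes tested, and 1 gene fell in each of the 5 lines. It was the same gene each time, Osr1, a zinc finger factor of intermediate and lateral plate mesoderm. Osr1 lay at 17.6, 21.8, 17.7, 22.5 and 18.9 CPM in the control and at 4.73 to 12.3 CPM in the 10 line libraries, which did not overlap the control. As with Hand2, the Nkx6.1-P2A-Nkx2.2 group was lowest, at 4.89 and 4.73 CPM. The log2 fold changes were -2.03 ± 0.20 there (adjusted p = 9.69e-05), -1.58 ± 0.19 in the Nkx6.1-P2A-Olig2 group (0.000740), -1.28 ± 0.18 in the Olig2 line (0.00146), -0.96 ± 0.18 in the Nkx6.1 line (0.0268) and -0.94 ± 0.18 in the Nkx2.2 line (0.0266). The first 3 held without each library in turn. The Nkx2.2 call was lost without Nkx2.2 replicate 2 or control replicate 2 or 4 (adjusted p up to 0.430), and the Nkx6.1 call without either Nkx6.1 library or control replicate 2 or 4 (up to 0.402). Both were also lost with the label series as a term (0.0798 and 0.0697), and the Nkx2.2 call with only the compared groups in the fit (0.104). Since the 5 comparisons share the control libraries, they are not separate evidence. Gata4 and Gata6, factors of heart and also of extraembryonic endoderm, were the highest genes of the list, with medians of 112 and 115 CPM, and passed in no line.

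**Figure D4:**
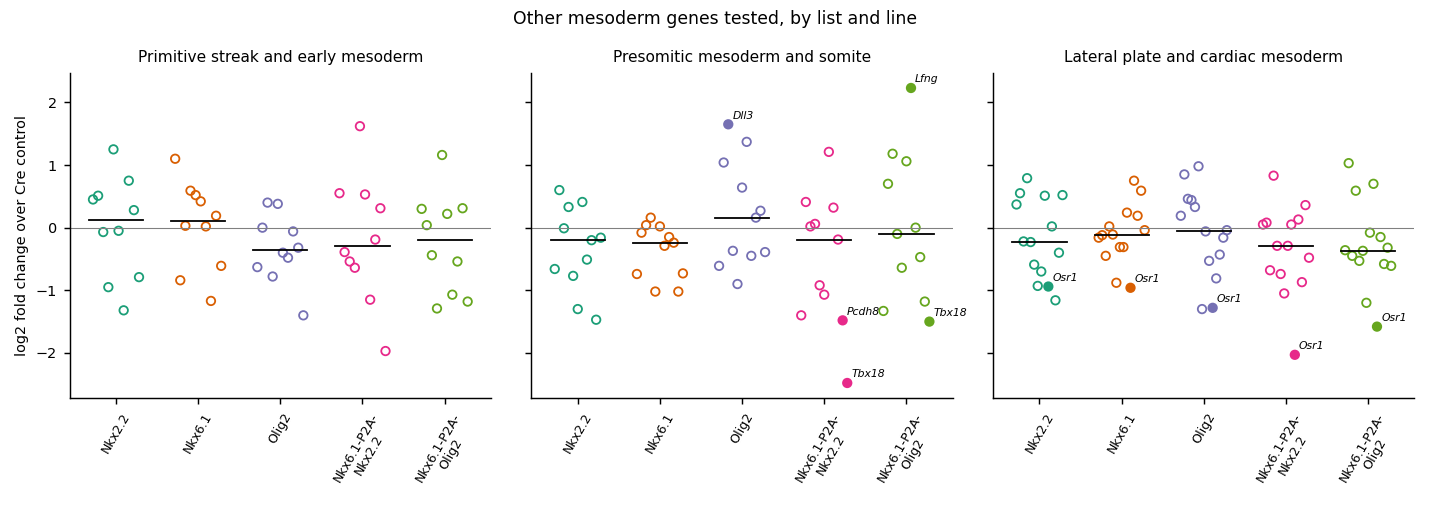
Log2 fold change over the Cre control (y axis) of every tested gene of 3 mesoderm lists in each line (x axis); points are genes, filled where the adjusted p is under 0.05, and the black bar is the median of the list. No point is filled for the primitive streak list, and Osr1 is the 1 filled point of the lateral plate list in each line.

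As bHLH proteins, Hand1, Hand2, Mesp1, Msgn1 and Tcf15 work as dimers with E proteins, and Id proteins block such dimers. Of the 9 genes of E proteins, Twist and Id proteins, all were tested. In the Olig2 line the E protein gene Tcf4 rose (0.69 ± 0.15, adjusted p = 0.0347). Tcf4 lies on chromosome 18, whose 354 tested genes had a median of 0.52 in that line, and the part of that shift in its rise was not tested. In the Nkx6.1-P2A-Nkx2.2 group 3 fell: Twist1, a dimer partner of Hand2 in mouse limb buds (-1.69 ± 0.28, adjusted p = 0.00500), Id2 (-1.05 ± 0.21, adjusted p = 0.0164) and Id1 (-0.77 ± 0.16, adjusted p = 0.0207). In the Nkx6.1-P2A-Olig2 group Id3 (-1.14 ± 0.15, adjusted p = 0.00136) and Id2 (-0.83 ± 0.20, adjusted p = 0.0470) fell, and in the Nkx2.2 and Nkx6.1 lines 0 of 9 passed. Id3 was the 1 call of these that held without each library in turn. Each of the other 5 was lost without replicate 2 of its line. Of the 7 fits with 1 library left out, Id2 with Nkx6.1-P2A-Olig2 was lost in all 7 and Tcf4 in 4. With Nkx6.1-P2A-Nkx2.2, Twist1 and Id2 were each lost in 2 and Id1 in 1. With the label series as a term Tcf4 (0.111), Id1 (0.0663) and Id2 in both 2-factor lines (0.0580 and 0.139) were lost too.

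Hand2 is also a gene of sympathetic neurons, so genes of sympathetic cells and neural crest were listed beside it. Of 9 listed genes 5 were tested. In the Nkx2.2, Nkx6.1 and Olig2 lines 0 of 5 passed. Gata3 fell in both 2-factor lines, with log2 fold changes of -1.55 ± 0.25 in the Nkx6.1-P2A-Nkx2.2 group (adjusted p = 0.00360) and -0.93 ± 0.23 in the Nkx6.1-P2A-Olig2 group (adjusted p = 0.0484). The crest genes Tfap2b (-4.17 ± 0.89, adjusted p = 0.0243) and Tfap2a (-1.72 ± 0.40, adjusted p = 0.0364) each fell in 1 of the 2-factor lines, Tfap2b with Nkx2.2 and Tfap2a with Olig2. Each of these falls was lost without at least 1 library of its own line. With Nkx6.1-P2A-Olig2, Tfap2a was lost in 6 and Gata3 in 5 of 7 fits with a library left out. With Nkx6.1-P2A-Nkx2.2, Gata3 and Tfap2b were each lost in 2 of 7. With the label series as a term Tfap2b (0.105), Tfap2a (0.106) and the Gata3 call with Nkx6.1-P2A-Olig2 (0.194) were lost. Both crest genes were low. Tfap2b was at 2.04 ± 0.985 CPM in the control and 0.112 ± 0.0688 CPM with Nkx6.1-P2A-Nkx2.2, near the count floor. Its log2 value there ran from -4.33 to -1.37 over 9 other settings. Tfap2a was at 2.84 ± 0.545 CPM in the control and 0.862 ± 0.107 CPM with Nkx6.1-P2A-Olig2. The summed level of the list was 22.5 to 28.1 CPM in the control, 18 to 23.6 CPM in the Olig2 line and 11.9 to 21.5 CPM in the other 4. Dbh was at 0 in the Nkx6.1 and Nkx6.1-P2A-Olig2 groups, but also in 8 of the 15 libraries in all, with at most 0.222 CPM. The median log2 fold change of the list was below 0 in every line: -0.47 with Nkx2.2, -0.74 with Nkx6.1, -0.56 with Olig2, -1.46 with Nkx6.1-P2A-Nkx2.2 and -0.94 with Nkx6.1-P2A-Olig2. With Nkx6.1 alone, Tfap2b (-2.87 ± 0.72, adjusted p = 0.0762) and Gata3 (-0.91 ± 0.23, adjusted p = 0.0802) were near the threshold. The list was not uniform. Phox2a lay at 0.88 with Nkx2.2, 0.27 with Nkx6.1, -0.56 with Olig2, 0.34 with Nkx6.1-P2A-Nkx2.2 and 0.02 with Nkx6.1-P2A-Olig2. Gata2 lay at 0.04, -0.29, 0.12, -0.36 and -0.51 in the same order. Neither gene passed in any line. The part of these cells in the Hand2 level was not tested.

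Markers of other cells in the cultures were set beside Hand2 and Meox1. Of the 7 feeder fibroblast markers 0 passed in any line and none was at 0 in a group. Their summed level was 30.0 to 95.8 CPM in the control, 63.0 to 86.3 CPM in the Nkx2.2 line, 85.0 to 116 CPM in the Nkx6.1 line, 46.3 to 72.7 CPM in the Olig2 line, 62.0 to 84.0 CPM in the Nkx6.1-P2A-Nkx2.2 group and 36.6 to 84.2 CPM in the Nkx6.1-P2A-Olig2 group. No line library had a fibroblast sum below the control range, and the Nkx6.1 line reached above it. Of the 5 pluripotency markers 0 passed and none was at 0. Their sums were 127 to 238 CPM in the control and 149 to 208 CPM in the Nkx6.1 line. The Nkx2.2 line held 99.1 to 148 CPM and the Olig2 line 104 to 221 CPM. Both 2-factor groups were below every control, at 80.1 to 120 CPM with Nkx6.1-P2A-Nkx2.2 and 85.2 to 92.1 CPM with Nkx6.1-P2A-Olig2. Of the 6 neural progenitor markers Pax6 fell in all 5 lines (-3.44 to -1.13) and Sox2 in the Nkx6.1 line (-0.63 ± 0.13, adjusted p = 0.0428). The Pax6 calls were lost without either library for Nkx6.1 and Olig2 and without replicate 2 for Nkx6.1-P2A-Olig2. The Sox2 call was lost without either Nkx6.1 library, and in 5 of 7 fits with a library left out in all. It was also lost with the label series as a term (adjusted p = 0.0765), and it held in 6 of 9 other settings, that one included. The sums of the 6 neural markers were 443 to 618 CPM in the control. Both libraries of the Nkx2.2 line (275 to 436 CPM) and of the Nkx6.1 line (309 to 386 CPM) were below every control. The Olig2 line held 349 to 618 CPM, the Nkx6.1-P2A-Nkx2.2 group 362 to 454 CPM and the Nkx6.1-P2A-Olig2 group 508 to 680 CPM. The part of these markers in the Hand2 and Meox1 levels was not tested.

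The genes nearest to Meox1 and Hand2 on their chromosomes were compared with them, a choice made after the values were known. None of the 4 nearest tested genes on the lower side of Meox1 passed. On the other side Sost, a Wnt inhibitor gene 72.6 kb away, rose in 3 lines, by 1.74 ± 0.27 with Nkx2.2 (adjusted p = 0.00796), 2.63 ± 0.26 with Nkx6.1-P2A-Nkx2.2 (adjusted p = 9.88e-05) and 2.07 ± 0.26 with Nkx6.1-P2A-Olig2 (adjusted p = 0.00111). In the Olig2 line, where Meox1 fell, Sost was at 0.02 ± 0.32 (adjusted p = 0.992). Mpp2 at 194.1 kb rose in the Olig2 line (0.65 ± 0.13, adjusted p = 0.0164) and both 2-factor lines (0.92 ± 0.12 and 0.78 ± 0.13). The Mpp2 calls with Olig2 and with Nkx6.1-P2A-Olig2 were lost without replicate 2 of the line (0.36 and 0.60, adjusted p = 0.555 and 0.147), and the Sost call with Nkx2.2 without either Nkx2.2 library (0.0538 and 0.103). With only the compared groups in the fit the Sost call with Nkx2.2 (0.0606) and the Mpp2 call with Olig2 (0.0766) were lost. Over 9 other settings, that one included, the Sost call held in 7 and the Mpp2 call in 6. Dusp3 at 92.6 kb rose in the 2-factor lines (0.42 ± 0.10 and 0.47 ± 0.10, adjusted p = 0.0443 and 0.0265). These 2 Dusp3 calls were each lost in 6 of 7 fits with a library left out. They held in 5 and in 7 of the 9 other settings. None of the 8 neighbours of Meox1 fell in the Olig2 line past the threshold. Near Hand2, 1 of 8 neighbours passed in any line: Galnt7, 332.0 kb away, fell in the Nkx2.2 line (-0.58 ± 0.08, adjusted p = 0.00554) and the Nkx6.1-P2A-Nkx2.2 group (-0.53 ± 0.08, adjusted p = 0.00330). Both calls were lost without either library of the line (adjusted p 0.0503 to 0.0901). Galnt7 did not pass in the Nkx6.1 line (-0.25 ± 0.08, adjusted p = 0.148). Of the 8 neighbours of Tcf15 none passed in any line.

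**Figure D5:**
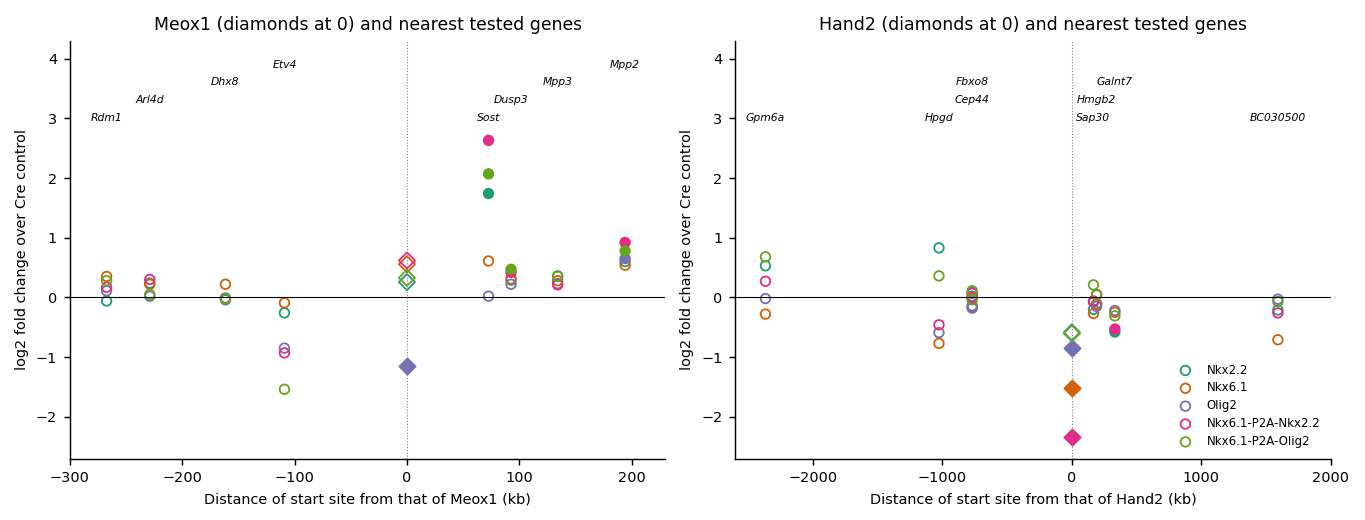
Log2 fold change over the Cre control (y axis) of Meox1, Hand2 and their 4 nearest tested genes on each side against the distance between start sites in kb (x axis); diamonds are Meox1 or Hand2, circles are neighbours, colours are lines, and filled symbols have an adjusted p under 0.05. Sost rose in 3 lines beside Meox1, and Galnt7 is the 1 neighbour of Hand2 with filled symbols.

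Over the 15 libraries, which share 1 scaling and fall into 6 groups, the genes most like each tested member were found by Pearson's r of log2(CPM + 1). For Hand2 they were the nuclear receptor gene Nr2f2 (r = 0.914), Lmo4 (0.899) and Pdgfc (0.882). For Meox1 they were Kcnip3 (0.910), Scn4b (0.867) and Antxr1 (0.844), and for Tcf15 Rps6kl1 (0.870), Fggy (0.859) and Dse (0.847). Nr2f2 ran from 33.9 to 89.0 CPM and Kcnip3 from 11.7 to 18.7 CPM. Among the members the values were lower: -0.36 between Hand2 and Meox1, 0.10 between Meox1 and Tcf15 and -0.07 between Hand2 and Tcf15. No member was among the 3 genes most like another. These values describe the libraries and have no test.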

How the data were processed

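Column-purified RNA went into TruSeq libraries, per the labels' protocols. STAR, DESeq2 and mm10 are named without roles or versions, per the submitters' processing notes. The annotation, counting tool and strand setting are not given in the sources used here.

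The deposited table has 23420 rows of counts, with 0 non-integer cells, although its sheet is named for RPKM. In 27 rows a date replaces the symbol (0.228% to 0.253% of counts). They stayed in the totals and were not tested. The other deposited table holds a ratio for each of 224 genes. All 2240 of its cells equal the count divided by the mean control count, within 1e-8.

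Counts were scaled by TMM and tested in edgeR 4.0.16 (R 4.3.3), by the quasi-likelihood test, with Benjamini-Hochberg adjustment over the 13982 genes that reached 1 CPM in 2 or more libraries. A single model of 6 groups held all 15 libraries, so groups of 2 share an estimate of the spread. Values are means ± SD over libraries, or log2 fold changes ± SE. RPKM uses the exon length of GENCODE M21.

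Members, lists and tests were chosen with earlier results of these data known. Text names all members, up to 4 called genes per list and line, and the 3 genes most like each tested member. The 4 comparisons of 2-factor with single-factor lines, the repeat without chromosomes 18 and Y, the neighbours, the motifs, Gata4, Gata6, Eomes, Evx1 and markers given as levels were chosen after their values were seen. The test was tried on simulated counts. Alternatives were DESeq2 1.42.0, limma 3.58.1 on log2(CPM + 1), median-of-ratios scaling, no filter, label terms, blocks, fewer groups and left-out libraries. Some genes of the lists are not reported here and were left out of the list counts, medians and sums.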

Additional observations from a re-analysis of the deposited data

Results flagged for a closer look

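In 5 comparisons between lines a member differed past the threshold of the edgeR test of the difference itself. Hand2 was higher in the Nkx6.1-P2A-Olig2 than in the Nkx6.1-P2A-Nkx2.2 group (log2 fold change 1.74, adjusted p = 0.0161). It was lower in the Nkx6.1-P2A-Nkx2.2 than in the Nkx2.2 line (-1.97, adjusted p = 0.0466). Meox1 was lower in the Olig2 line than in the Nkx2.2 line (-1.40, adjusted p = 0.0211) and the Nkx6.1 line (-1.70, adjusted p = 0.00626), and higher in the Nkx6.1-P2A-Olig2 group than in the Olig2 line (2.00, adjusted p = 0.0173).

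Mesp1 stood out in 1 control library, replicate 5, at 0.0556 CPM where the other 4 controls were at 0. The gap equals the whole range, and the level is that of 1 read. With a single read in a group the gap always equals the range.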

How the results depend on the processing

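Over the 564 repeats of a member's fold change under another setting, 493 kept their direction and side of the threshold, 45 kept the direction and lost the call, 4 gained a call and 22 turned direction. Of 69 repeats of the F test, 67 kept their side of the threshold and 2 lost the call. For the other genes named as called, 444 of 575 kept the call, 131 lost it and none turned. Hand2 in the Nkx6.1-P2A-Nkx2.2 group (-2.47 to -1.91 over 9 settings) and the F test of Hand2 over the 6 groups kept their calls in every repeat.

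The number of members called, out of 3, changed as follows. In the Nkx6.1 line it went from 1 to 0 with either block. In the Olig2 line it fell from 2 to 1 with no filter, a label series term or the replicate block, and to 0 with only the compared groups or without chromosomes 18 and Y. Under the label-number block it was 2 in both 2-factor lines instead of 1 and 0. With only the compared groups it was 0 instead of 1 for the 2-factor lines against each other and for Olig2 against Nkx2.2, as in the latter without chromosomes 18 and Y. DESeq2 gave 1 instead of 0 for Nkx6.1 against Nkx2.2 (Hand2, adjusted p = 0.0314). Leaving out 1 library gave 0 to 1 in the Nkx6.1 line, 0 to 2 in the Olig2 line, 1 to 2 for any difference, 0 to 1 for Olig2 against Nkx6.1 and for Nkx6.1-P2A-Olig2 against Olig2, and 0 each for the 2-factor lines against each other, Olig2 against Nkx2.2 and Nkx6.1-P2A-Nkx2.2 against Nkx2.2. Median-of-ratios scaling moved Tcf15 in the Nkx6.1 line from 7.35 to 7.31 CPM. The cause of these changes was not tested.

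All values that turned direction were uncalled. For Tcf15 they were -0.0883 (replicate block) and -0.30 (label-number block) in the Nkx6.1 line, 0.0702 in the Olig2 line, 0.37 for Olig2 against Nkx6.1 and -0.0779 for Nkx6.1 against Nkx2.2 (label-number block), and -0.16 (no series term) and -0.14 (replicate block) for Nkx6.1-P2A-Olig2 against Olig2. For Meox1 they were -0.0314 in the Nkx2.2 line (label-number block), and -0.23 (no series term) and -0.23 (replicate block) for Nkx6.1-P2A-Olig2 against Nkx6.1. With 1 library left out, Tcf15 ranged from -0.53 to 0.10 in the Olig2 line, -0.0287 to 0.60 for Olig2 against Nkx2.2, -0.35 to 0.0569 for Nkx6.1-P2A-Nkx2.2 against Nkx6.1 and -0.26 to 0.37 for Nkx6.1-P2A-Olig2 against Olig2, where Hand2 ranged from -0.12 to 0.16.

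Equal numbers in the labels were taken to pair libraries only if the deviations of every pair correlated above 0.1, which they did not. Deviations of libraries with the same replicate number correlated at -0.36 to 0.73 (17 of 30 pairs over 0.1). With the same label number they correlated at -0.52 to 0.73 (6 of 10 over 0.1). The medians were 0.11 and 0.31, against -0.09 for pairs sharing neither (13 of 54 over 0.1). Of 15 libraries, 9 and 8 correlated best with their own number. Deviations were taken from group means, so those of the 2 libraries of a line mirror each other. Pairs between 2 lines thus repeat 1 value with either sign, as 0.727 and -0.727 for Nkx2.2 with Olig2. The pairs sharing neither number are therefore no separate reference for these medians and counts. With the replicate block Hand2 in the Nkx6.1 line was -1.43 (adjusted p = 0.0550). With the label-number block it was -0.92 (0.115), Meox1 was 0.98 (0.00202) in the Nkx6.1-P2A-Nkx2.2 group and 0.67 (0.0147) in the Nkx6.1-P2A-Olig2 group, and Hand2 was -0.72 (0.0235) in the latter. Osr1 lost its call with the replicate block in the Nkx2.2 line (0.111) and with either block in the Nkx6.1 line (0.127 and 0.106). All-gene counts of calls moved with the label-number block from 260 to 2021 in the Olig2 line, from 399 to 1109 and from 397 to 1269 in the 2-factor lines, from 101 to 269 in the Nkx2.2 line and from 864 to 2351 for any difference, and from 103 to 40 in the Nkx6.1 line with either block. Without chromosomes 18 and Y the Olig2 line had 34 calls instead of 260. Against Nkx2.2 and Nkx6.1 it had 69 and 46 instead of 257 and 263. Over the 5 comparisons with the control edgeR called 101 to 399 genes and DESeq2 220 to 714. The 6 low members had 0 to 17 counts per library, and without the filter the SE of their log2 fold changes was 0.45 or more wherever the gene had a read in the compared groups.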
